A study of Mus musculus with 10 samples.

Results

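The genes described are 8 enzymes that move single carbon units on folate and the 2 NAD kinases of the mouse: Shmt1, Shmt2, Mthfd1, Mthfd1l, Mthfd2, Mthfd2l, Aldh1l1, Aldh1l2, Nadk and Nadk2. They were chosen by name, and all 10 have a row of their own among the 31218 genes of the deposited table. RNA-seq was made from 10 livers, treated here as coming from separate mice, after 16 weeks of a high-fat diet. In 5 of them, called Flox, the labels give the genotype Me1 flox/flox. The other 5, called HKO, have the genotype written Me1 Alb/Alb, and the series describes them as lacking Me1 in hepatocytes and the Flox mice as their wild-type littermates. The labels give no age, sex, strain or batch and do not spell out what drives the deletion. Cells other than hepatocytes keep Me1 in such a knockout, and whole liver RNA mixes them with hepatocytes.

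Folate enzymes run as parallel chains in the cytosol and the mitochondrion. A serine hydroxymethyltransferase (Shmt1 in the cytosol, Shmt2 in mitochondria) takes a carbon from serine, leaving glycine and methylene-folate. Dehydrogenases and cyclohydrolases (Mthfd1 in the cytosol, Mthfd2 and Mthfd2l in mitochondria) oxidise it to formyl-folate, from which the synthetase Mthfd1l releases formate in mitochondria. Aldh1l1 in the cytosol and Aldh1l2 in mitochondria oxidise formyl-folate to CO2 and make NADPH. NAD kinases (Nadk in the cytosol, Nadk2 in mitochondria) phosphorylate NAD to NADP, the pool from which NADPH is made. Me1, the cytosolic malic enzyme removed in these mice, is another source of NADPH in liver.

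Promoters are shown for the genes on which the results turn. These are Shmt2, which was lower in HKO under each scaling tried, Nadk, whose ratio to its partner was higher, and Mthfd2, the scarce dehydrogenase whose ratio to Mthfd1 separated the groups. Each holds 250 bases before and 50 bases after a start site, from RefSeq on GRCm38.p6, written 5′ to 3′ on the strand of the gene, with motif matches in capitals. RefSeq gave promoters for 8 of the 10 genes, 9 in all, since Nadk has 2 start sites. The downstream one is printed because it holds a motif match.
Shmt2, chr10:127522395-127522694, minus strand: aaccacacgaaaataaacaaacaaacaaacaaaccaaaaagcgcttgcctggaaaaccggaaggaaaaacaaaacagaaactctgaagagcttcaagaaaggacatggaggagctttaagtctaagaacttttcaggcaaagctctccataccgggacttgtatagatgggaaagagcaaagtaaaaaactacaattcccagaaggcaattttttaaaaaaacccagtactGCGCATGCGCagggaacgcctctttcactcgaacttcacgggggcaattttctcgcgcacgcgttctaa
Nadk, chr4:155563565-155563864, plus strand: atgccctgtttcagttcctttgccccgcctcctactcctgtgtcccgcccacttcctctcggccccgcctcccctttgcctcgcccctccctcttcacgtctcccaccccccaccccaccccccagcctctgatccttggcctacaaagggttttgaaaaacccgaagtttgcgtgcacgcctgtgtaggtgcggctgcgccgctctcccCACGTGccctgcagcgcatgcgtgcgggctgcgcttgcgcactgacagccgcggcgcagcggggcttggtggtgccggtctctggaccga
Mthfd2, chr6:83317555-83317854, minus strand: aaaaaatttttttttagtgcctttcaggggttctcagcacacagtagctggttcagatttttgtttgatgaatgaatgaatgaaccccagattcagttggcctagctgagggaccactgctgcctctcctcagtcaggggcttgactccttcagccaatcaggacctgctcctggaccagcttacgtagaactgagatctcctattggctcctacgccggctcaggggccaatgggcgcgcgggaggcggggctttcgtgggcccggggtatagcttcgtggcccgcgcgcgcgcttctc

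Capitals in the Shmt2 promoter mark the palindromic element of nuclear respiratory factor NRF1, starting 19 bases before the start site. This motif was added after the sequences had been seen. It was in 1 of the 9 promoters and in 0.971% of all 32851 promoters of that length. Capitals in the Nadk promoter mark an E-box, CACGTG, 40 bases before the start site, found in 1 of the 9 promoters and in 7.15% of all. The ATF4 composite element TGATGNAAN was in 0 of the 9 and in 3.95% of all, and the antioxidant response element core TGACNNNGC in 0 of the 9 and in 12.4% of all. Both strands were searched, and matches of different motifs did not overlap. A match describes letters in the window and no more.

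Libraries held 52790000 to 60765120 counts. Me1 was at 4.90 to 7.00 FPKM (the deposited level per gene length and library size) in HKO and 30.2 to 46.7 in Flox, so each library matched its label. The TMM factors with which edgeR equalises libraries ran from 0.896 to 0.965 in Flox and from 0.998 to 1.16 in HKO, without overlap. With them, 878 of 18065 tested genes were higher in HKO and 1156 lower (edgeR, adjusted p under 0.05; 43.2% of calls higher). With total counts alone 3632 were higher and 384 lower (90.4% higher), and the median over all genes moved on the log2 scale from 0.02 to 0.25. CPM values below are counts scaled to a common library size with the TMM factors.

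Marker genes of liver cells also differed between the groups. Summed hepatocyte markers were at 91529 to 108035 CPM in Flox and 64447 to 80289.6 in HKO (2 of 8 lower). Alb made up most of this sum, at a mean of 68541 CPM in Flox and 55491 in HKO, and did not pass (log2 fold change -0.30, edgeR adjusted p = 0.0794). Apoa1 and Serpina1c were lower, at -1.13 and -1.09. Apob, Ttr, Hnf4a, Cps1 and Tat did not pass, at -0.03, -0.12, -0.34, -0.48 and -0.92. All 8 have mean CPM over 100, a class in which 30.8% of tested genes were lower. In whole liver, a marker sum does not tell fewer cells of a type from lower levels of some of its marker genes in each cell. Stellate markers summed to 118 to 263 and 255 to 471 CPM (5 of 8 higher), and cholangiocyte markers to 48.1 to 71.1 and 79.1 to 123 (3 of 6 higher). Spp1 made up most of the cholangiocyte sum, at a mean of 50.2 CPM in Flox and 93.2 in HKO. Epcam and Cldn4, also higher, had HKO means of 1.96 and 0.941 CPM. Krt7, Krt19 and Sox9 did not pass, at log2 fold changes of -0.13, 0.17 and -0.04. Macrophage markers summed to 192 to 388 and 269 to 342 CPM (3 of 10 higher), endothelial markers to 181 to 273 and 233 to 297 (1 of 7 higher), and lymphocyte markers to 2.93 to 6.79 and 3.22 to 4.88 (1 of 8 lower). Beside these counts, 4.86% of all tested genes were higher and 6.4% lower. Among genes from 10 to 100 CPM the shares were 5.67% and 9.19%, and among those under 10 CPM 4.53% and 1.23%. HKO 4 and HKO 5 stood apart with 297 and 320.001 CPM of 8 epidermal genes and 244 and 268 CPM of 7 skeletal muscle genes, against at most 7.62 and 5.86 CPM in the other 8 livers. Of 6 listed exocrine pancreas markers only 1, Cela1, had a row in the deposited table. It was at 8.92 to 17.9 CPM in Flox and 5.59 to 7.55 in HKO, and was lower (log2 fold change -0.96, edgeR adjusted p = 0.00541). No listed marker with a row was at 0 in all livers. The part of these cells in the results was not tested, and values without HKO 4 and HKO 5 are given for each member and partner ratio and for each list gene whose call they end.

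Per length of gene, the 10 genes fell into abundant and scarce ones. In Flox livers Aldh1l1 led at 148 ± 22.8 FPKM (mean ± SD, n = 5, as below), followed by Shmt2 at 64.3 ± 3.51, Nadk at 48.9 ± 5.05, Mthfd1 at 38.5 ± 2.74, Shmt1 at 33.2 ± 4.68 and Nadk2 at 23.9 ± 1.33. Far below came Mthfd1l at 0.691 ± 0.159, Mthfd2 at 0.640 ± 0.158, Aldh1l2 at 0.216 ± 0.0817 and Mthfd2l at 0.149 ± 0.0670. Neighbours whose Flox ranges overlapped were Nadk and Mthfd1, Mthfd1 and Shmt1, Mthfd1l and Mthfd2, and Aldh1l2 and Mthfd2l. The abundant genes thus were the 3 cytosolic folate enzymes, both kinases and Shmt2, and the scarce ones the other 4 mitochondrial folate enzymes. In HKO, Nadk at 66.7 ± 8.49 FPKM stood above Shmt2 at 52.8 ± 2.64, and their ranges of 56.8 to 79.8 and 48.4 to 55.0 did not overlap.

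**Figure D1:**
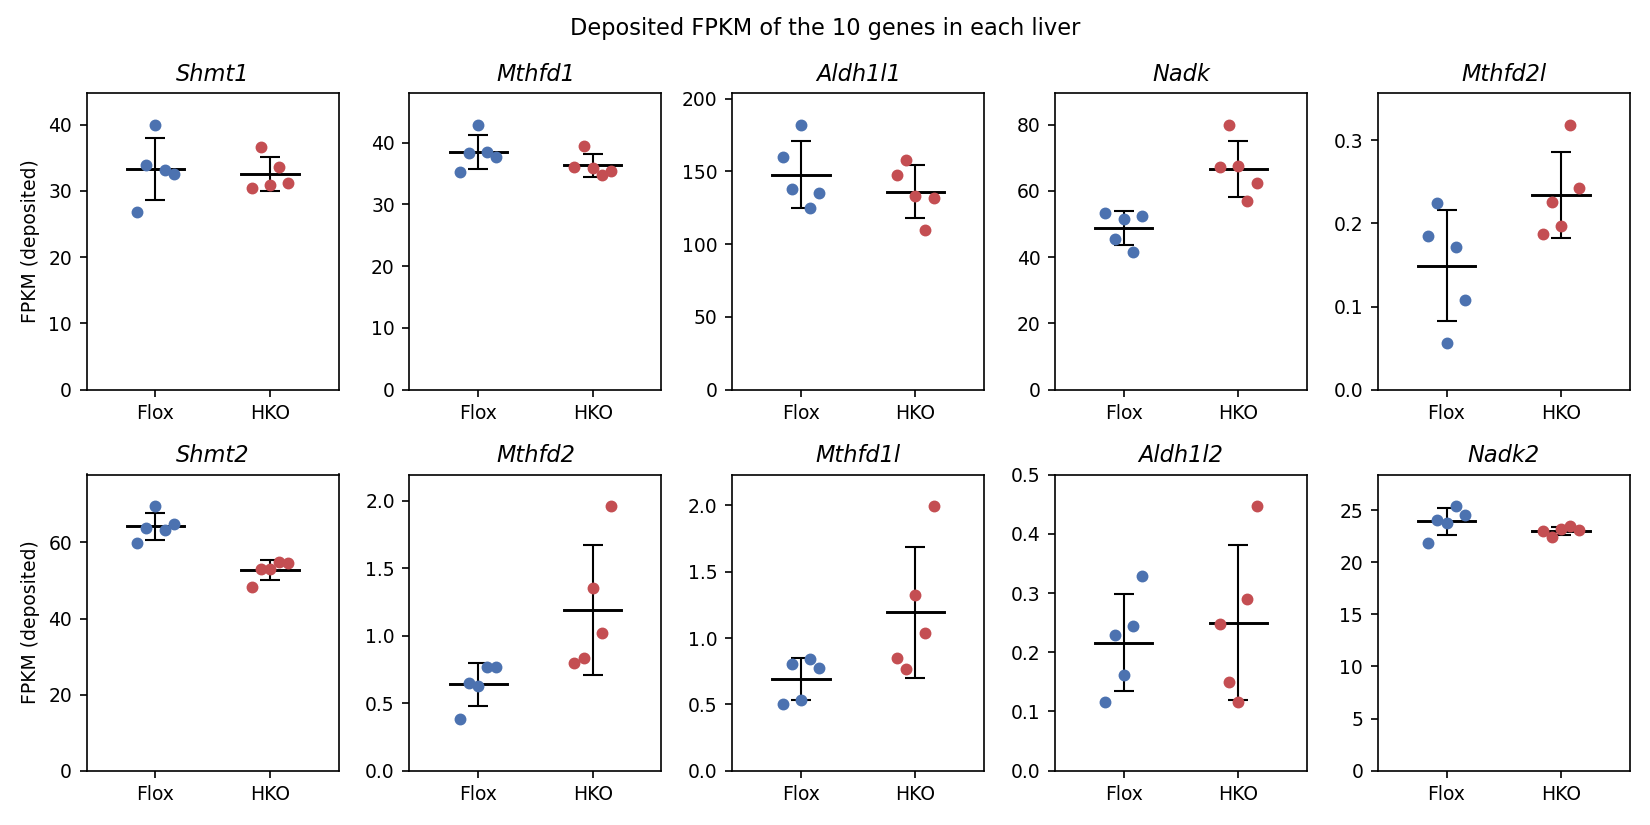
Deposited FPKM (y axis, from 0, a scale for each gene) of the 10 genes in 5 Flox and 5 HKO livers; points are livers, the line is the mean and the bar the SD. Shmt2 is lower in all HKO livers, Nadk and Mthfd2 are higher in all, and the groups of the other 7 genes overlap.

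With TMM scaling, Shmt2, Mthfd1 and Nadk2 fell in HKO, 0 of the 10 genes rose and 7 did not pass (edgeR, adjusted p under 0.05 over all tested genes). Over all tested genes 6.4% were lower and 4.86% higher. Beside the 0 higher genes, 1 had an unadjusted p under 0.05 by edgeR, and DESeq2 also called 0 higher. All 6 abundant genes have mean CPM over 100, and of the 1337 tested genes in that class 30.8% were lower and 3.22% higher, with a median log2 fold change of -0.18. The 3 of 6 that fell are to be read against that share. The 4 scarce genes have mean CPM under 10, a class with 1.23% lower, 4.53% higher and a median of 0.16. Over the 10 genes the median log2 fold change was -0.13, against 0.02 over all tested genes.

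**Figure D2:**
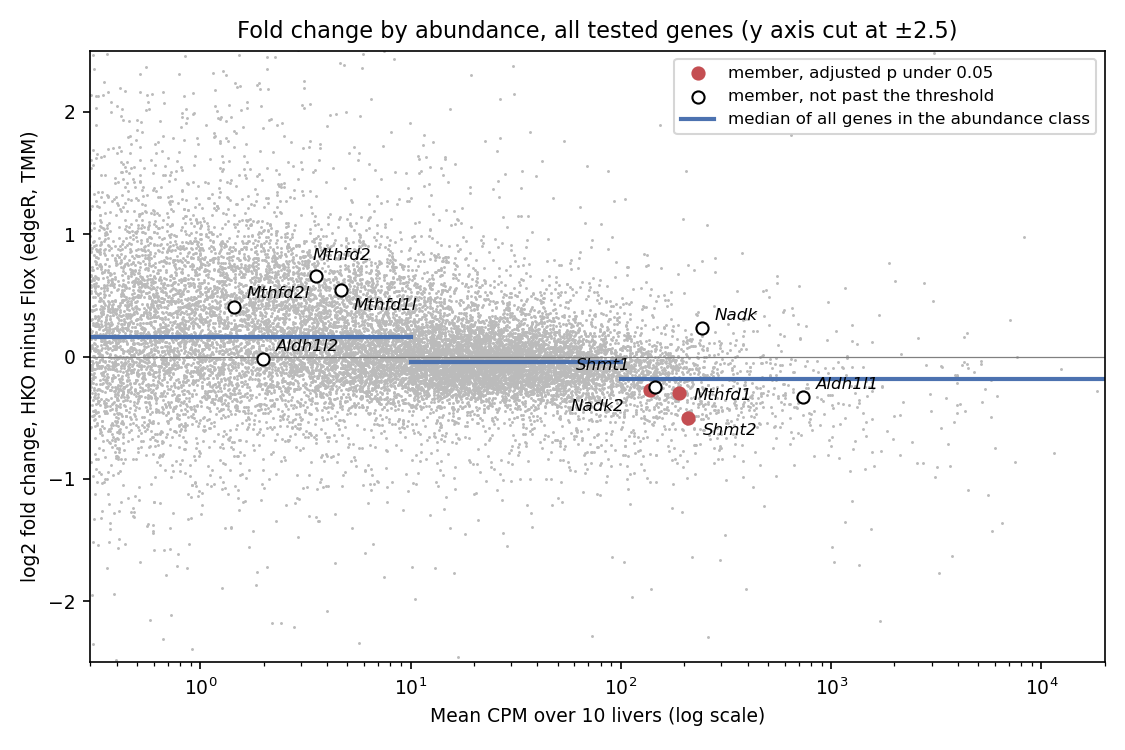
Log2 fold change, HKO minus Flox, from edgeR with TMM scaling (y axis) against mean CPM over the 10 livers (x axis, log scale) for all tested genes (grey), members past the threshold (red) and other members (open). Blue lines are the medians of genes under 10, from 10 to 100 and over 100 CPM, at 0.16, -0.05 and -0.18; Nadk lies above its line and Shmt2 below.

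Shmt2 (ENSMUSG00000025403, chromosome 10, 127517123 to 127522444, minus strand), the mitochondrial enzyme that opens the chain, fell. Its CPM was 235, 235, 256, 246 and 252 in Flox 1 to 5 and 171, 179, 173, 169 and 169.6 in HKO 1 to 5. Each HKO liver lay below each Flox liver, and the HKO livers lay close together. The log2 fold change was -0.51 (SE 0.05, edgeR adjusted p = 4.6e-04), a level 1.42-fold lower. With total counts alone, where 2.13% of genes were lower, it was -0.28 (edgeR adjusted p = 0.00823), and after quantile normalization -0.30 (limma adjusted p = 0.0120). In FPKM the ranges were 59.7 to 69.5 and 48.4 to 55.0, again without overlap, as in 1.64% of tested genes. Without HKO 4 and HKO 5 the log2 fold change was -0.49 (edgeR adjusted p = 0.00352).

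Shmt1 (ENSMUSG00000020534, chromosome 11, 60788104 to 60811265, minus strand), its cytosolic partner, did not pass. Its CPM was 131, 156, 184, 160.4 and 158 in Flox 1 to 5 and 135, 154, 126, 129 and 121 in HKO 1 to 5. The groups overlapped, with Flox 1 among the HKO livers. The log2 fold change was -0.25 (95% interval -0.45 to -0.04, edgeR adjusted p = 0.110), -0.02 with total counts alone, -0.19 without HKO 4 and HKO 5, and -0.31 without Flox 1, where it passed (edgeR adjusted p = 0.0377). A ratio of 2 genes within a liver does not depend on library scaling. Shmt1 to Shmt2 in FPKM was 0.447, 0.532, 0.574, 0.523 and 0.501 in Flox 1 to 5 and 0.629, 0.690, 0.582, 0.612 and 0.570 in HKO 1 to 5. Flox 3 lay above HKO 5, and otherwise each HKO liver lay above each Flox liver. The ratio was 1.20-fold higher in HKO, a log2 difference of 0.26 (exact two-sided permutation p = 0.0159, adjusted p = 0.0212 over 4 partner pairs), and 0.30 without HKO 4 and HKO 5.

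Mthfd1 (ENSMUSG00000021048, chromosome 12, 76255298 to 76319803, plus strand), the cytosolic enzyme with dehydrogenase, cyclohydrolase and synthetase activities in a single protein, fell with TMM scaling. Its CPM was 198, 202, 225, 213 and 209.6 in Flox 1 to 5 and 182, 191, 168, 153 and 157 in HKO 1 to 5. The groups did not overlap, and HKO 4 and HKO 5 were lowest. This was a log2 fold change of -0.30, which passed (SE 0.07, edgeR adjusted p = 0.0234). The call was lost with total counts alone (-0.08, edgeR adjusted p = 0.390), after quantile normalization (-0.12, limma adjusted p = 0.224) and without HKO 4 and HKO 5 (-0.21, edgeR adjusted p = 0.119). It was also lost on leaving out Flox 4, Flox 5, HKO 3 or HKO 5 alone, at edgeR adjusted p values of 0.0553, 0.0512, 0.0531 and 0.0640. In FPKM the groups overlapped, at 35.2 to 42.8 in Flox and 34.7 to 39.5 in HKO.

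Mthfd2 (ENSMUSG00000005667, chromosome 6, 83305691 to 83317606, minus strand), a mitochondrial dehydrogenase and cyclohydrolase best known from embryonic and dividing cells, did not pass with TMM scaling. It had 90, 153, 148, 161 and 184 counts in Flox 1 to 5 and 187, 181, 321, 231 and 449 in HKO 1 to 5. HKO 5 and HKO 3 were highest and Flox 1 lowest, and in CPM the ranges of 1.72 to 3.38 and 3.18 to 6.83 overlapped. On the log2 scale HKO differed from Flox by 0.65 (95% interval 0.09 to 1.22, edgeR adjusted p = 0.128), 0.44 without HKO 5, and 0.46 without HKO 4 and HKO 5. With total counts alone, where 20.1% of genes were higher, it passed at 0.90 (edgeR adjusted p = 0.0384). In FPKM the HKO livers, at 0.795 to 1.96, all exceeded the Flox livers, at 0.382 to 0.768, as in 14.2% of tested genes. Cell division genes summed to 58.1 to 77.3 CPM in Flox and 65.3 to 95.8 in HKO, with HKO 5 highest. Of these genes 1 of 12 was higher, beside 4.86% of all tested genes, and their part in the Mthfd2 values was not tested.

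Mthfd1l (ENSMUSG00000040675, chromosome 10, 3973118 to 4167081, plus strand), the mitochondrial formyl-folate synthetase, was at 2.85, 4.24, 2.82, 4.68 and 4.30 CPM in Flox 1 to 5 and 4.30, 3.70, 6.17, 4.59 and 8.84 in HKO 1 to 5. The groups overlapped, and HKO 5 and HKO 3 were again highest. Its log2 fold change was 0.55 (95% interval -0.0039 to 1.10, edgeR adjusted p = 0.186), 0.32 without HKO 5, and 0.33 without HKO 4 and HKO 5. Mthfd2l (ENSMUSG00000029376, chromosome 5, 90931117 to 90974348, plus strand), the paralog of Mthfd2 known from adult tissues, had 25 to 101 counts in Flox and 85 to 138 in HKO. Its log2 fold change was 0.41, with a 95% interval of -0.31 to 1.13 (edgeR adjusted p = 0.466), and it was 0.28 without HKO 4 and HKO 5.

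The ratio of Mthfd1 to Mthfd2 in FPKM was 92.1, 58.8, 68.0, 50.1 and 49.2 in Flox 1 to 5 and 45.3, 47.2, 26.5, 34.1 and 18.1 in HKO 1 to 5. Each HKO liver lay below each Flox liver. The ratio was 1.92-fold lower in HKO, a log2 difference of -0.94 (exact two-sided permutation p = 0.00794, the smallest that the 252 splits of the livers can give, and adjusted p = 0.0212 over 4 pairs). Mthfd1 is in the class over 100 CPM and Mthfd2 in that under 10, with median log2 fold changes of -0.18 and 0.16. A ratio does not remove such a difference between classes, and its part in this result was not tested. Without Flox 1 or without Flox 3 the adjusted permutation p was 0.0529, at log2 differences of -0.80 and -0.91. Without HKO 4 and HKO 5 the log2 difference was -0.69 (exact permutation, adjusted p = 0.0476), and with 0.5 added to the FPKM of both genes it was -0.62 (exact permutation, adjusted p = 0.0212).

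Aldh1l1 (ENSMUSG00000030088, chromosome 6, 90486427 to 90600203, plus strand), the cytosolic formyl-folate dehydrogenase, did not pass. Its CPM was 912, 738, 972, 703 and 763 in Flox 1 to 5 and 758, 773, 633, 491 and 594 in HKO 1 to 5. HKO 3, HKO 4 and HKO 5 lay below all Flox livers, while HKO 1 and HKO 2 lay within the Flox range. Its difference on the log2 scale was -0.33 (95% interval -0.63 to -0.04, edgeR adjusted p = 0.139), and -0.18 without HKO 4 and HKO 5.

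Aldh1l2 (ENSMUSG00000020256, chromosome 10, 83487450 to 83534140, minus strand), its mitochondrial partner, had 58 to 170 counts in Flox and 61 to 222 in HKO. Its log2 fold change was -0.02, with a 95% interval of -0.82 to 0.78 (edgeR adjusted p = 0.977), and its sign depended on the scaling, at 0.23 with total counts alone. Without HKO 4 and HKO 5 it was -0.47 (edgeR adjusted p = 0.572). Of its runs of 50 transcript bases 16.7% are shared with D10Wsu102e, a gene that overlaps it on the opposite strand. Whether strand was used in counting is not given, so its counts are uncertain. The ratio of Aldh1l1 to Aldh1l2 ranged from 411 to 1378 in Flox and from 295 to 1143 in HKO. The log2 difference of -0.26 did not pass (exact two-sided permutation p = 0.611, adjusted p = 0.611), and it was 0.31 without HKO 4 and HKO 5.

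Nadk (ENSMUSG00000029063, chromosome 4, 155562378 to 155591001, plus strand), the cytosolic NAD kinase, had 53.2, 45.5, 51.6, 41.6 and 52.3 FPKM in Flox 1 to 5 and 67.1, 79.8, 67.3, 56.8 and 62.3 in HKO 1 to 5. On this scale the lowest HKO liver exceeded the highest Flox liver, as in 14.2% of tested genes. In CPM the groups overlapped, at 195 to 252 in Flox and 211 to 325 in HKO, with HKO 4 and HKO 5 inside the Flox range. The log2 fold change with TMM scaling was 0.23 (95% interval -0.03 to 0.49, edgeR adjusted p = 0.232). It was 0.46 with total counts alone (edgeR adjusted p = 0.00731) and 0.45 after quantile normalization (limma adjusted p = 0.00526), a fit that called 4.89% of genes higher. Relative to the median of all genes in the same fit, these values were 0.22 with TMM, 0.21 with total counts and 0.48 with quantile scaling. Without HKO 4 and HKO 5 the TMM value was 0.38 (edgeR adjusted p = 0.0653).

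Nadk2 (ENSMUSG00000022253, chromosome 15, 9071260 to 9110891, plus strand), the mitochondrial NAD kinase, fell with TMM scaling. Its CPM was 141, 146, 144, 162 and 157 in Flox 1 to 5 and 134, 124, 125, 119 and 118 in HKO 1 to 5. The highest HKO liver was under the lowest Flox liver. With TMM the log2 fold change was -0.28 (SE 0.06, edgeR adjusted p = 0.0151). The call was lost with total counts alone (-0.05, edgeR adjusted p = 0.530), after quantile normalization (-0.12, limma adjusted p = 0.254) and without HKO 4 and HKO 5 (-0.23, edgeR adjusted p = 0.0923). In FPKM the HKO livers, at 22.4 to 23.4, lay inside the Flox range of 21.8 to 25.4.

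The ratio of Nadk to Nadk2 was 2.44, 1.89, 2.17, 1.64 and 2.13 in Flox 1 to 5 and 2.92, 3.57, 2.90, 2.42 and 2.70 in HKO 1 to 5. Flox 1 lay just above HKO 4, and otherwise each HKO liver lay above each Flox liver. The cytosolic kinase mRNA relative to the mitochondrial one was 1.41-fold higher in HKO, a log2 difference of 0.50 (exact two-sided permutation p = 0.0159, adjusted p = 0.0212 over 4 pairs). Without HKO 4 and HKO 5 it was 0.61 (exact permutation, adjusted p = 0.0357).

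**Figure D3:**
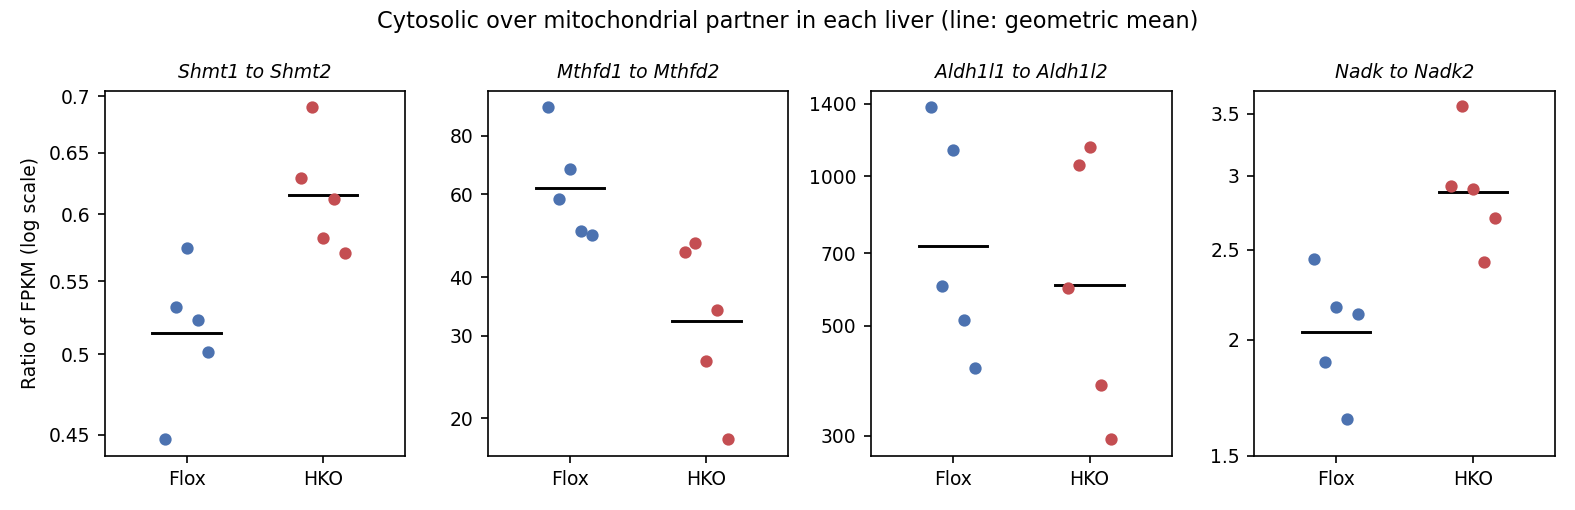
Ratio of the cytosolic to the mitochondrial partner in deposited FPKM (y axis, log scale) in each of 5 Flox and 5 HKO livers; points are livers and the line is the geometric mean. Shmt1 to Shmt2 and Nadk to Nadk2 are higher in HKO by log2 differences of 0.26 and 0.50, Mthfd1 to Mthfd2 differs by -0.94, and Aldh1l1 to Aldh1l2 overlaps widely.

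Across scalings, Shmt2 was lower in HKO with TMM, RLE, upper-quartile, total-count and quantile scaling. Mthfd1 and Nadk2 passed with TMM, RLE and upper-quartile factors and not with total counts or quantile scaling. Nadk passed with total counts and quantile scaling and not with the other 3. In each of these fits the share of all genes called is the background: 4.89% higher and 4.85% lower with quantile scaling, where 1 of the 10 genes was higher and 1 lower, and 20.1% and 2.13% with total counts, where 2 were higher and 1 lower. With limma on log2(FPKM + 0.5), 17.8% of all genes were higher and 2.19% lower, while Nadk passed as higher and Shmt2 as lower. Without HKO 4 and HKO 5, 2.45% of all genes were higher and 2.91% lower, while Shmt2 alone passed among the members. In CPM, 3 of the 10 genes had all HKO livers below the Flox range and 0 above it, where 6.48% and 4.41% of tested genes did. For 9 of the 10 genes the sign of the fold change was the same under these 5 scalings, and Aldh1l2 was the exception.

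**Figure D4:**
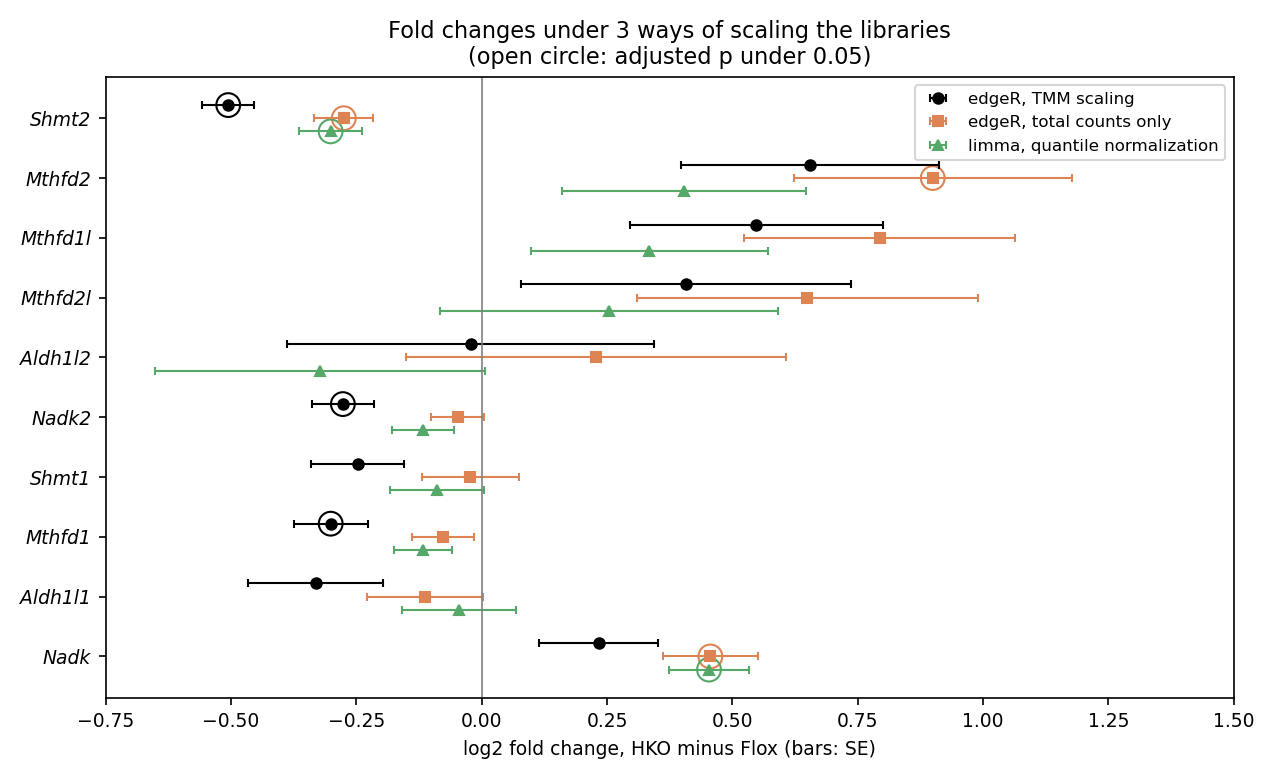
Log2 fold change, HKO minus Flox (x axis; bars are the SE), of the 10 genes (y axis) from edgeR with TMM factors, edgeR with total counts only and limma after quantile normalization; open circles mark an adjusted p under 0.05. Shmt2 is lower in all 3 fits, at -0.51, -0.28 and -0.30, Nadk is past the threshold in the last 2, and Mthfd1 and Nadk2 in the first.

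Profiles most like those of the genes that fell were taken by the root-mean-square difference of log2 CPM over the 10 livers, each gene centred on its own mean, among 13962 genes. For Shmt2 they were Hsd3b7 at 0.0442, an enzyme of bile acid synthesis, and Ndrg2 at 0.0550. For Mthfd1 they were Aldh7a1 at 0.0458, an enzyme of lysine breakdown, and Tmem102 at 0.0525. For Nadk2 they were Pskh1 at 0.0458 and Puf60 at 0.0465. The members' own root-mean-square deviations were 0.256, 0.181 and 0.155, and the livers share the group difference.

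Among genes for folate uptake, retention and reduction, 1 of 7 tested fell, 0 rose (edgeR; 1 at an unadjusted p under 0.05, DESeq2 0) and 6 did not pass, at -0.16 to 0.53. Over all tested genes 6.4% were lower and 4.86% higher, and in the class over 100 CPM, to which the gene that fell belongs, 30.8% were lower. The list's median log2 fold change was 0.02. Folr2 did not pass with TMM scaling. It was called higher with total counts alone (edgeR) and with limma on log2(FPKM + 0.5), where 20.1% and 17.8% of tested genes were higher. Fpgs, the synthetase that adds glutamates to folate and so holds it in the cell, was at 320.2, 298, 284, 198 and 288 CPM in Flox 1 to 5 and 202, 213, 151, 122 and 154 in HKO 1 to 5. Flox 4 lay among the HKO livers. Fpgs fell (log2 fold change -0.72, SE 0.16, edgeR adjusted p = 0.0187). The call was lost without HKO 5 (-0.68, edgeR adjusted p = 0.0516) and without HKO 4 and HKO 5 (-0.55, edgeR adjusted p = 0.0889). Folr1, a folate receptor, was too low to test.

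Of 12 other genes, for enzymes that use or make folate-bound carbon units or work beside them, 4 fell, 1 rose and 7 did not pass (median log2 fold change -0.17). The 4 that fell are the 4 genes of the list over 100 CPM, a class in which 30.8% of tested genes were lower, against 6.4% over all genes. Pipox, Sardh and Dmgdh, which oxidise sarcosine or dimethylglycine, the methylated glycines formed in choline breakdown, had the smallest p. Pipox, the peroxisomal oxidase of sarcosine and pipecolate, releases formaldehyde and does not itself act on folate. It was at 228, 240.3, 253, 252 and 246 CPM in Flox 1 to 5 and 152, 144, 137, 141 and 122 in HKO 1 to 5 (log2 fold change -0.81, SE 0.07, edgeR adjusted p = 1.6e-04). Sardh, mitochondrial sarcosine dehydrogenase, was at 903 to 1092 CPM in Flox and 593 to 707 in HKO (-0.60, SE 0.08, edgeR adjusted p = 0.00124). Dmgdh, dimethylglycine dehydrogenase, was at 574 to 705 and 369 to 512 CPM (-0.57, SE 0.10, edgeR adjusted p = 0.00509). For these 3 genes HKO was below Flox without overlap in CPM and in FPKM, as in 6.48% and 1.64% of tested genes. With total counts alone they were at -0.58, -0.37 and -0.34 (edgeR adjusted p = 4.2e-04, 0.00411 and 0.00877).

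Ftcd, which feeds carbon from histidine into folate, was at 414 to 448 CPM in Flox and 307 to 386 in HKO, and fell with TMM scaling (log2 fold change -0.30, SE 0.07, edgeR adjusted p = 0.0226). Its call was lost with total counts alone (-0.07, edgeR adjusted p = 0.387), after quantile normalization (-0.03, limma adjusted p = 0.778), with limma on log2(FPKM + 0.5) (-0.08, adjusted p = 0.324), without Flox 4 (edgeR adjusted p = 0.0526) and without HKO 4 and HKO 5 (-0.20, edgeR adjusted p = 0.0834). Its groups overlapped in FPKM. Mtr, methionine synthase, was at 9.50 to 10.8 CPM in Flox and 11.2 to 14.2 in HKO. All HKO livers were above all Flox livers, as in 4.41% of tested genes, and Mtr rose (log2 fold change 0.33, SE 0.09, edgeR adjusted p = 0.0359). Mtr no longer passed when HKO 4 and HKO 5 were both left out (0.28, edgeR adjusted p = 0.185), after quantile normalization (0.27, limma adjusted p = 0.0805), with no filter on low counts (edgeR adjusted p = 0.0684) and with the gene length trend removed (edgeR adjusted p = 0.0848). It was also lost on leaving out any liver but Flox 3 or HKO 2, with edgeR adjusted p values of up to 0.0905.

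Serine and glycine genes gave 0 calls among 9 tested by edgeR with TMM scaling, with 2 higher and 2 lower at an unadjusted p under 0.05, and 0 by DESeq2. Their median log2 fold change was -0.09 and their range -0.33 to 0.68. Of this list Psph was called higher with total counts alone (edgeR) and with limma on log2(FPKM + 0.5), where 20.1% and 17.8% of tested genes were higher. NAD synthesis and turnover had 1 of 10 genes lower and 0 higher (edgeR; 1 at an unadjusted p under 0.05, DESeq2 0), with a median of -0.09, beside 6.4% lower and 4.86% higher over all tested genes. Naprt, which starts NAD synthesis from nicotinic acid, was at 79.8, 102, 88.2, 92.2 and 108 CPM in Flox 1 to 5 and 67.5, 69.4, 53.8, 60.6 and 52.6 in HKO 1 to 5. In CPM each HKO liver lay below each Flox liver, as in 6.48% of tested genes, and Naprt fell (-0.63, SE 0.10, edgeR adjusted p = 0.00371). With total counts alone it was at -0.41 (edgeR adjusted p = 0.0137). In FPKM its groups overlapped, at 26.9 to 36.9 in Flox and 21.8 to 27.2 in HKO. In its class of 10 to 100 CPM, 9.19% of tested genes were lower. Nampt, of the same list, did not pass with TMM scaling (0.25, edgeR adjusted p = 0.131). It was called higher with total counts alone (edgeR) and after quantile normalization (limma), where 20.1% and 4.89% of tested genes were higher. In FPKM its HKO livers, at 11.4 to 13.3, all exceeded the Flox livers, at 7.61 to 10.6, as in 14.2% of tested genes. Nnt, the mitochondrial transhydrogenase, is split over 2 entries of the table and is not counted, and Nmrk2 was too low to test.

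Mthfd2, Shmt2, Aldh1l2 and serine synthesis genes are known targets of ATF4, the stress-induced activator of amino acid genes. Of 12 ATF4 and stress response genes 2 rose, 0 fell (edgeR; 0 at an unadjusted p under 0.05, DESeq2 0) and 10 did not pass (median log2 fold change 0.45), beside 4.86% higher and 6.4% lower over all tested genes. The 10 that did not pass ranged from -0.77 to 1.61. At an unadjusted p under 0.05 by edgeR, 6 of the 12 were higher, including the 2 that rose. DESeq2 called 4 of the list higher, and edgeR with total counts alone 5, where 20.1% of all genes were higher. Trib3, a stress-induced pseudokinase, was at 7.56, 6.15, 5.40, 7.87 and 8.58 CPM in Flox 1 to 5 and 15.5, 13.3, 39.3, 17.7 and 17.5 in HKO 1 to 5, and rose (1.54, SE 0.29, edgeR adjusted p = 0.00780). Sesn2, a sestrin, was at 13.5 to 15.9 CPM in Flox and 16.7 to 25.9 in HKO, and rose (0.59, SE 0.11, edgeR adjusted p = 0.00759). For both genes HKO was above Flox without overlap in CPM and in FPKM, as in 4.41% and 14.2% of tested genes. Atf4 itself was at 57.4 to 95.1 and 64.6 to 86.8 CPM (log2 fold change -0.13, edgeR adjusted p = 0.547), and its sign changed with total counts alone (0.11).

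**Figure D5:**
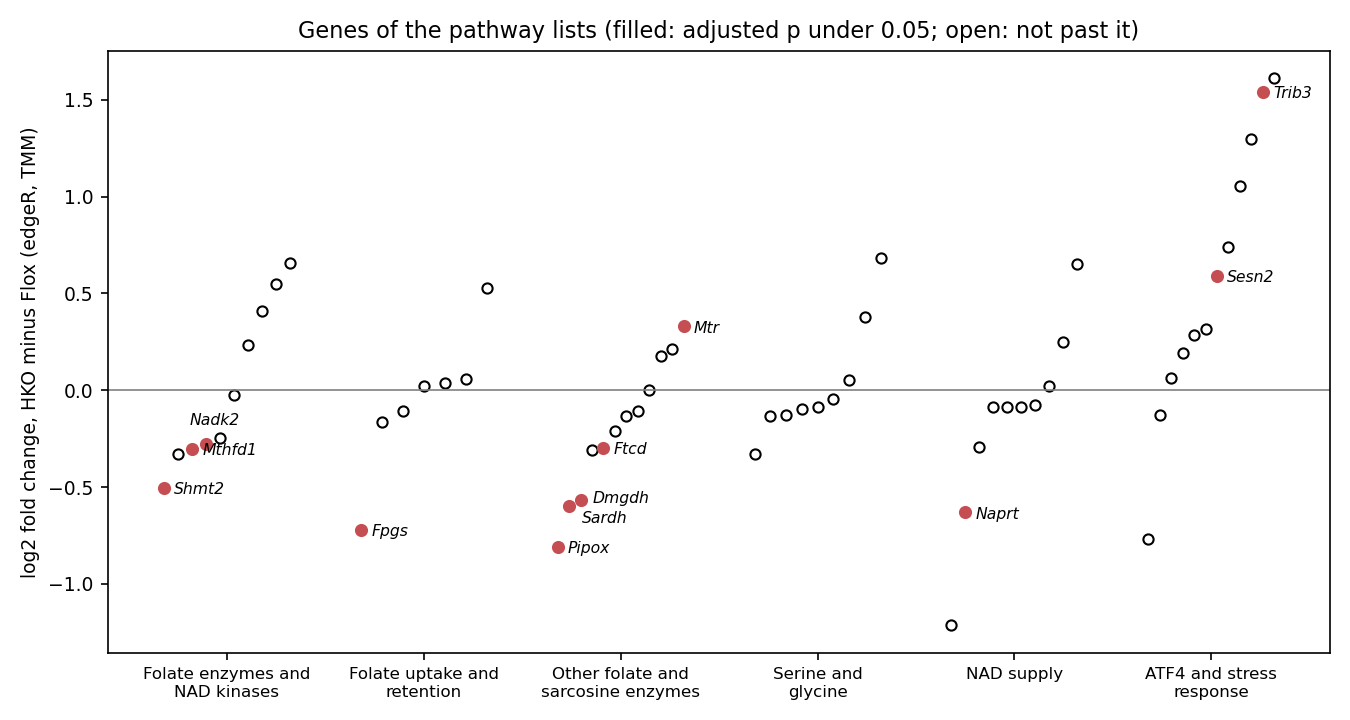
Log2 fold change, HKO minus Flox, from edgeR with TMM scaling (y axis) for the tested genes of 6 lists (x axis), each point a gene; filled points passed an adjusted p under 0.05 and are named. Pipox, Sardh and Dmgdh are the lowest of the other folate and sarcosine enzymes, at -0.81, -0.60 and -0.57, and Trib3 and Sesn2 are the genes of the stress list that passed.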

How the data were processed

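The authors deposited a table with whole-number counts and FPKM per gene and liver; FPKM equals a count divided by gene length and library size within rounding for abundant genes, so both come from the same reads. The submitters' processing notes name HISAT2 2.2.1 and StringTie 2.1.6, with cutadapt 1.9, and also edgeR and DESeq2 without a version; they give no roles. The genome build and the strand setting of counting are not given in the sources used here; gene positions are as deposited, and 7 of 10 match GENCODE M21 on GRCm38 at both ends. Per the labels' protocols, polyadenylated RNA was sequenced in pairs of 150 bases with a strand mark.

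Livers were grouped by genotype label and treated as separate mice, which no label states; p-values measure only the spread between these samples. Genes passing edgeR's filter on low counts (18065 of 31218) were fitted with edgeR 4.0.16 (R 4.3.3, quasi-likelihood test, TMM, Benjamini-Hochberg adjustment), after a test on simulated data. Alternatives were RLE, upper-quartile and total-count scaling, limma 3.58.1 after quantile normalization or on log2(FPKM + 0.5, 0.1 or 1), DESeq2 1.42.0, no filter on low counts, removal of a trend with gene length, and livers left out; total-count scaling was added after seeing the data. Partner ratios of FPKM were compared by exact permutation. Member genes and lists were chosen with earlier results of these data known. Named genes are the members, Me1, list genes past the threshold (up to 6 a list) and the 2 most like profiles per member that fell. Atf4, Folr1, Folr2, Nampt, Nnt, Nmrk2, Psph and the cell markers given by name were named outside this rule.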

Additional observations from a re-analysis of the deposited data

Results flagged for a closer look

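Of 52 groups of 5 livers checked, 3 held a liver far from the others, where chance gives about 1 in 20. Me1 was at 227.5 CPM in Flox 1, against 145 to 164 CPM in the other Flox livers. Me1 was at 26.9 CPM in HKO 5, against 20.5 to 22.2 CPM in the other HKO livers. Trib3 was at 39.3 CPM in HKO 3, against 13.3 to 17.7 CPM in the other HKO livers.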

How the results depend on the processing

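The fall of Shmt2 passed under all 21 alternatives, as did the calls of Pipox, Sardh, Dmgdh, Naprt, Trib3 and Sesn2. Over all genes, the number higher was 3632 with total counts, 1566 with DESeq2, 3212, 3253 and 3191 with limma on log2(FPKM + 0.5, 0.1 and 1), 454 without HKO 4 and HKO 5, and 498 to 1058 when leaving out 1 liver at a time. The number lower was 384, 396, 396 and 395 with total counts and the 3 FPKM fits, 539 without HKO 4 and HKO 5, and 691 to 1162 when leaving out 1 liver. Among the 10 genes, 2 were higher with total counts and 1 with quantile normalization and each FPKM fit, and 1 was lower in each of these and without HKO 4 and HKO 5; leaving out 1 liver gave 0 higher and 2 to 4 lower. In the wider lists 10 were higher with total counts and each FPKM fit and 5 with DESeq2. Aldh1l2 changed sign to 0.23 with total counts, 0.0052 with upper-quartile scaling and 0.058, 0.11 and 0.036 in the FPKM fits, was -0.47 without HKO 4 and HKO 5, and ranged from -0.30 to 0.19 when leaving out 1 liver. Atf4 changed sign to 0.11 with total counts and 0.10 in each FPKM fit. The ratio of Aldh1l1 to Aldh1l2 was 0.31 without HKO 4 and HKO 5 and ranged from -0.49 to 0.00045 when leaving out 1 liver; that of Mthfd1 to Mthfd2 ranged from -1.08 to -0.73, and was -0.69 without HKO 4 and HKO 5 and -0.62 with 0.5 added to both FPKM values. Beyond what scaling sets, the cause was not tested. The labels used here give no pair or litter, and their sample numbers are not shared between the groups. No paired analysis was therefore made, and any litter structure was not modelled. Mthfd2l and Aldh1l2 had the fewest counts of the 10 genes.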
